A study of Mus musculus with 25 samples.

Results

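The 500 genes described here had much H3K4me1 and little H3K4me3 at their annotated gene regions 8 days into a chemical treatment of mouse fibroblasts. They were chosen from measured values: 9604 of the 24453 rows of the gene table had less than 5 RPM (reads-per-million) of H3K4me3 and less than 3.5 RPM of H3K27me3 in the day 8 libraries, and the 500 of these with the most H3K4me1 at day 8 were taken. They make up 2.04% of the rows and 5.21% of the rows within both limits. H3K4me1, H3K4me3 and H3K27me3 at day 8 are therefore properties of the choice, given as a description with no test. H3K27ac at every stage and all marks at day 0 and day 4 were not used in it, though they may go together with the values that were.

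Chromatin was taken from fibroblasts that the labels call tdMEFs. At D0 the cells grew with serum at 20% oxygen, and at D4 and D8 they had spent 4 and 8 days at 5% oxygen in a medium named M9, which lacks serum and contains CHIR99021, LDN193189, A83-01, Hh-Ag1.5, retinoic acid, SMER28, RG108, Parnate and bFGF. The series title describes a reprogramming of defined fibroblasts towards neural stem cells, and the question asked here is how the marks at these genes stood before and during it. Each mark had 1 library per stage, so no difference can be set against a spread between replicates and no p-value is given. The design text of the series writes ciNSLC beside day 0, whereas each sample of that day is labelled tdMEFs, which was taken as right. Nothing in the labels says how many animals or cultures the cells came from.

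H3K4me1 is written mostly by the MLL3 and MLL4 methyltransferases and is found at enhancers and on the flanks of active promoters. H3K4me3 marks the start sites of active genes and of many CpG-rich inactive ones, H3K27ac is added by the acetyltransferases p300 and CBP at active enhancers and promoters, and H3K27me3 is laid down by Polycomb repressive complex PRC2. A region with H3K4me1 and without H3K4me3 is the usual picture of an enhancer, and H3K27ac is commonly used to tell active enhancers from inactive ones. The values here are counts at gene regions, so the signal at a listed gene may lie in an element that acts on another gene.

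The DNA at the starts of most of these genes was poor in CpG, the dinucleotide whose density goes with H3K4me3 at mammalian promoters. Promoter windows of 250 bases before to 50 after the annotated start, from RefSeq on GRCm38.p6, are shown for 4 genes described below and, last, for Cep170, ranked 2 by H3K4me1 at D8, whose window was CpG-rich. Each is read 5′ to 3′ along the gene, and capitals mark CpG dinucleotides. The Omd window is chr13:49582212-49582511 on the plus strand and holds 1 CpG. The Tnni3k window is chr3:155055358-155055657 on the minus strand and holds 3. The Il6 window, chr5:30012864-30013163 on the plus strand, also holds 3. The Tnfsf13 window is chr11:69685505-69685804 on the minus strand and holds 5, whereas that of Cep170, chr1:176813904-176814203 on the minus strand, holds 34.
Omd: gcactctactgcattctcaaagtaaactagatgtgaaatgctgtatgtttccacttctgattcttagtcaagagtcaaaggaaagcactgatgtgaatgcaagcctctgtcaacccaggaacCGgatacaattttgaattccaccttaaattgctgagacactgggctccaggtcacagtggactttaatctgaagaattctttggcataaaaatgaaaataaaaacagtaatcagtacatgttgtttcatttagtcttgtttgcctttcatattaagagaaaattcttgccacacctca
Tnni3k: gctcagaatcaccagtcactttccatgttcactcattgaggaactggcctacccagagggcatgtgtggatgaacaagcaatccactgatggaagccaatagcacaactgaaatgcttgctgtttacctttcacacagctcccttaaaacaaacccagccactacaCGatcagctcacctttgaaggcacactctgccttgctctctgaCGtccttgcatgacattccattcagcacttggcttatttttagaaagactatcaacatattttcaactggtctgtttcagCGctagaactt
Il6: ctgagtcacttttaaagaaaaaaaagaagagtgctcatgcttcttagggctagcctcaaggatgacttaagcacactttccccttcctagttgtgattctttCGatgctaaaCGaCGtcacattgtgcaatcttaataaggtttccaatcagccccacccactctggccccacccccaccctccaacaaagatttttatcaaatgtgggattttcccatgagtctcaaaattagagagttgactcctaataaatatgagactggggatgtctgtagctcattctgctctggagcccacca
Tnfsf13: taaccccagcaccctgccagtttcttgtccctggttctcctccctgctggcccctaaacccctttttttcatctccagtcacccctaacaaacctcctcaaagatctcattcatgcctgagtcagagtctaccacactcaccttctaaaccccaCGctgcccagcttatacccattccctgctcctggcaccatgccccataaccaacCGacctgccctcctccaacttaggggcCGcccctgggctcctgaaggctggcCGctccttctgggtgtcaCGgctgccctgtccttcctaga
Cep170: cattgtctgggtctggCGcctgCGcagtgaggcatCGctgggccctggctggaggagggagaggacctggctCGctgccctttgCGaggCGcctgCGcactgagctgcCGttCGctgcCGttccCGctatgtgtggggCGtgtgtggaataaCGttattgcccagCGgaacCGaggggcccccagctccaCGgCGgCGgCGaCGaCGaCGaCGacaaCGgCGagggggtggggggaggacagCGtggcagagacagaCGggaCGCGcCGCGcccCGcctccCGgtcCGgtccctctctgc

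MicroRNAs were the most frequent family named for what its genes are, behind the RIKEN clone names (111 members), and their mature sequences were available from RefSeq for 52 of the 61 members annotated as microRNA genes. The mature forms are shown for the members that share a seed with another member and for 3 further ones with values below, in RNA letters, 5′ to 3′, with the seed (bases 2 to 8, the stretch that pairs with target mRNAs) in capitals. The first 3 belong to the let-7 family and share a seed, the next 2 to the miR-29 family, and the following 3 share the seed of the miR-15 and miR-16 family. Among the 81 mature sequences there were 75 different seeds, of which 4 occurred in more than 1 member. The fourth shared seed was that of the 3p strands of let-7a-1 and let-7f-1.
mmu-let-7a-5p: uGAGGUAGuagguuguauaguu
mmu-let-7f-5p: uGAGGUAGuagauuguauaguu
mmu-let-7c-5p: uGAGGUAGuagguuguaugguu
mmu-miR-29a-3p: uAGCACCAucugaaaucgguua
mmu-miR-29b-3p: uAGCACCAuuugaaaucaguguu
mmu-miR-15b-5p: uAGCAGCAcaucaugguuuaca
mmu-miR-16-5p: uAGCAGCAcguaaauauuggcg
mmu-miR-6353: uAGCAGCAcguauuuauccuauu
mmu-miR-100-5p: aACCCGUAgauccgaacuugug
mmu-miR-199a-3p: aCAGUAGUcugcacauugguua
mmu-miR-3971: cUCCCCACcccuguaccaguga

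The edges of the choice were not gaps in the data. The last gene taken, E330013P04Rik, a long non-coding RNA, had 5.27 RPM of H3K4me1 at D8, and Mir701, left out as the next row in table order, had the same value. Just inside the H3K4me3 limit were Mfap5, a microfibril protein of fibroblasts (4.96 RPM), Rgs5 (4.91) and Lix1 (4.88), and just outside it were 9330111N05Rik (5.02), AI504432 (5.08) and Htra4 (5.08). Inside the H3K27me3 limit were Tmc3 (3.49 RPM), Colq (3.31) and Prelp (3.31). S100a4, a fibroblast marker that encodes a calcium-binding protein, had 14.3 RPM of H3K4me1 and 2.12 of H3K4me3 at D8 and was left out for its 3.58 RPM of H3K27me3.

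The libraries differed widely in depth. Implied read numbers were 24.5 to 34.0 M for H3K4me1, 1.58 to 16.9 M for H3K27ac, 2.77 to 34.9 M for H3K4me3 and 5.11 to 18.4 M for H3K27me3. A member had a median of 83.0 to 199 reads in the H3K4me1 libraries but of 4.50 reads in H3K27ac at D0 and 5.00 in H3K4me3 at D4, so single-gene values in these libraries are coarse. The D0 libraries also stood apart in sex-chromosome signal: 5 Y-linked genes averaged 10.3 RPM of H3K4me3 at D0, 5.84 at D4 and 7.93 at D8, and Xist, whose RNA coats the inactive X of female mammals, had 1.03, 41.1 and 47.9 RPM. No label gives a reason for this difference, and treatment and whatever underlies it cannot be told apart in any comparison with D0. As in any bulk sample, fewer cells carrying a mark and less mark per cell cannot be told apart either. Of the fibroblast list, 37 of 40 genes reached the all-gene median of H3K4me3 at D0, as did 14 of 18 smooth muscle and contractile, 12 of 31 neural stem and progenitor, 6 of 18 astrocyte, 4 of 26 neuronal, 2 of 25 skeletal muscle, 2 of 24 blood and macrophage, 2 of 18 endothelial, 2 of 19 oligodendrocyte and 1 of 23 epithelial genes.

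H3K4me1 at these genes was high before the treatment and higher at D4. The member medians at D0, D4 and D8 were 3.38, 4.96 and 6.68 RPM, at percentile 88.5, 94.97 and 94.89 of all 24221 genes with a usable symbol and a value above 0. At D0, 242 members (48.4%) were already in the top 10% of all genes, at D4 334 (66.8%) and at D8, by the choice, 356 (71.2%). All 3 stages placed 184 members in the top 10%. At D0, 39 members lay below the all-gene median and 461 at or above it.

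Relative to D0, H3K4me1 at D4 was above its starting value in 463 of 500 members (92.6%), where the background over all genes was 68.9%. Changes were measured as log2((a + c)/(b + c)), with c the lower quartile of the mark's positive values (1.63 RPM for H3K4me1), which understates the change of low genes. The median change was 0.42 for members and 0.24 for all compared genes. A difference of at least 2-fold on this scale was reached by 6 members (1.20%) upward and by none downward, with a background of 0.0947% upward (13 of 13732 genes). Once the median change of all genes was subtracted, no gene reached it upward, and 0.200% of members and 0.0364% of all genes reached it downward. A choice by H3K4me1 at D8 may favour high values at D4 too, and its part in the excess over all genes was not tested. Of the other 8893 genes within both limits, 41.5% had a higher value at D4. A higher value at D4 was not particular to genes without H3K4me3. Of the 3657 genes with as much H3K4me1 at D8 and at least 5 RPM of H3K4me3, 94.8% had one, with a median change of 0.31. In that set 2 genes (0.0547%) were at least 2-fold higher, a smaller share than the 1.20% of members. In the plot of levels by gene set the members lie beside that set for H3K4me1 and far below it for H3K4me3.

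**Figure D1:**
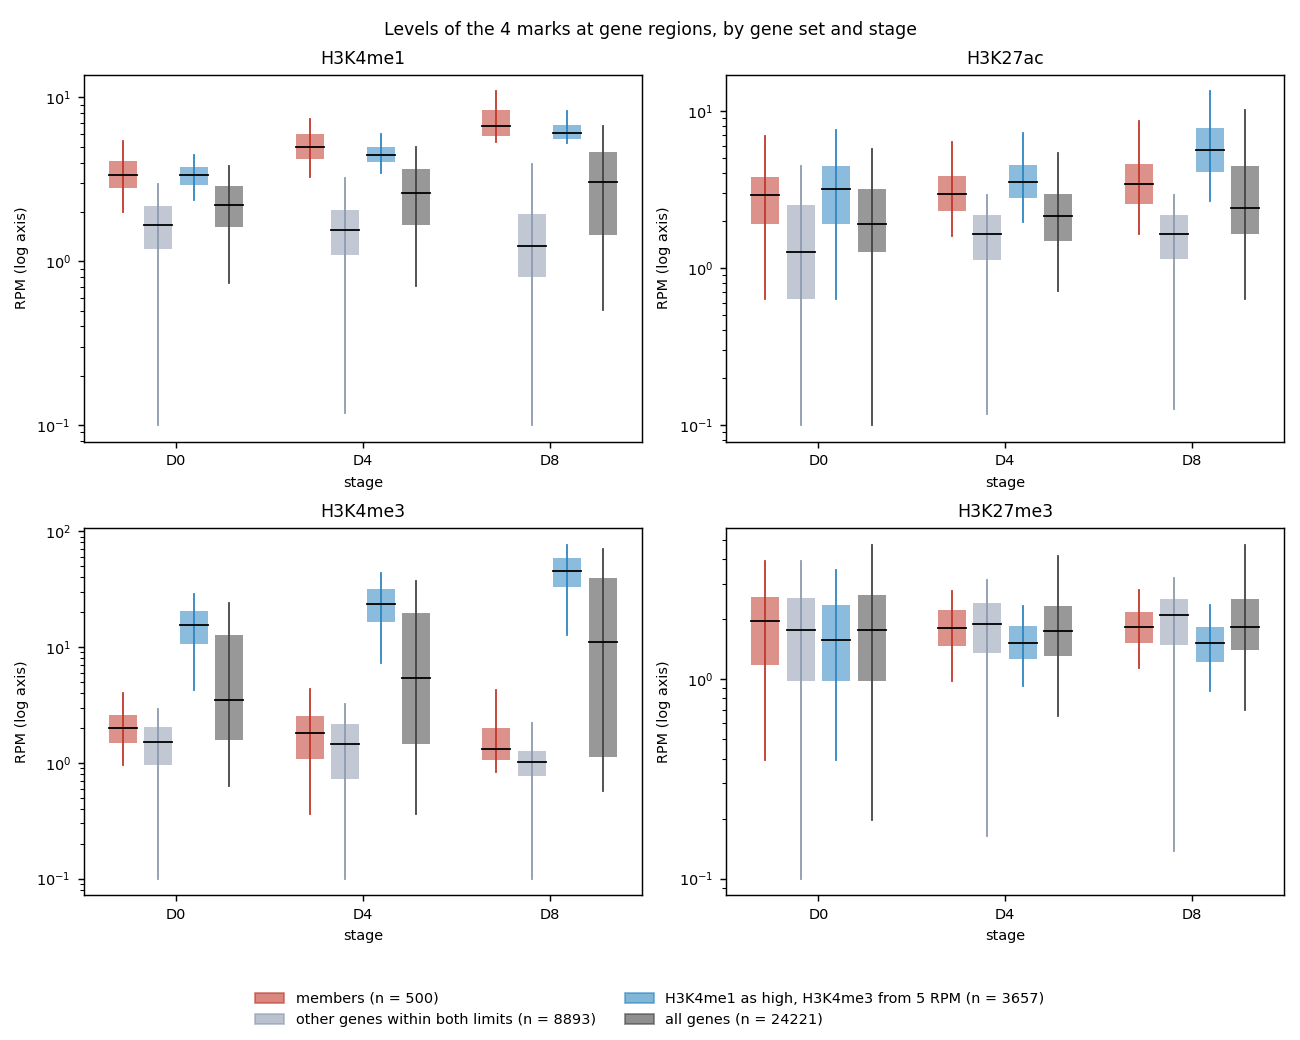
Levels of the 4 marks (RPM, log axis) at D0, D4 and D8 in 4 gene sets, with boxes from the lower to the upper quartile, black bars at the median and lines from the 5th to the 95th percentile, values under 0.1 drawn at 0.1. The members match the H3K4me3-bearing genes in H3K4me1 (median 4.96 against 4.46 RPM at D4) and lie below them in H3K27ac at D8 (3.43 against 5.60 RPM). Values at D8 in the panels of H3K4me1, H3K4me3 and H3K27me3 were fixed by the choice.

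The 6 members with a 2-fold higher H3K4me1 at D4 were Xdh, Gm12830, Gm11562, 4930433B08Rik, Glrp1 and Krt33a. Xdh, xanthine dehydrogenase of purine breakdown, went from 2.65 RPM (95% Poisson interval 2.04 to 3.38) to 8.14 at D4 (7.21 to 9.15) and 9.34 at D8, a log2 change of 1.19 at D4. Its intervals at D0 and D4 did not overlap. Krt33a, a hair keratin, had the least H3K4me1 of all members at D0 (1.06 RPM) and then 3.82 and 6.21 RPM. Among the 10 members lowest at D0 were also Sox15, a SOX transcription factor (1.59, 4.11 and 5.47 RPM), and Gm11562, in the locus of keratin-associated proteins (1.59, 5.38 and 5.74).

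The opposite course was rare. The long non-coding RNA gene 1600019K03Rik started at 8.68 RPM, the most of any member at D0, stood at 4.26 and 5.81 RPM later, and was the single member with less H3K4me1 at D8 than at D0. Its H3K27ac went from 6.95 RPM to 1.83 and 2.93. In 458 members the H3K4me1 values stood in the order D0, D4, D8 from low to high. The choice favours the last step of this order and may favour the first. Between D8 and D0, a contrast used by the choice, 107 members (21.4%) were at least 2-fold higher beside a background of 2.38%.

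The 12 members with the most H3K4me1 at D8 were Omd, Cep170, Ccl2, Tnni3k, Ip6k2, Bcas3os2, Gm19705, Mir3971, Mmp27, Mir100, D630010B17Rik and Tmem52b. Omd encodes osteomodulin, a small leucine-rich proteoglycan of bone and connective tissue matrix. Its H3K4me1 at D0, D4 and D8 was 7.21, 11.3 and 16.8 RPM, and its H3K27ac, the highest of all members at each stage, was 22.1, 18.2 and 23.1 RPM. Its H3K4me3 was 3.72, 2.89 and 3.012 RPM and its H3K27me3 2.94, 1.14 and 0.785. H3K27ac at Omd was thus about as high before treatment as after it, and its counting intervals at D0 (15.4 to 30.8 RPM) and D8 (19.9 to 26.8) overlapped. Cenpp, the centromere protein gene within which Omd lies, had 42.3 RPM of H3K4me3 at D8.

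Ccl2, the chemokine that attracts monocytes, had 5.74, 9.28 and 14.0 RPM of H3K4me1 and 9.48, 9.33 and 13.2 RPM of H3K27ac at D0, D4 and D8. Its H3K4me3 stayed between 2.67 and 3.25 RPM and its H3K27me3 was 2.54, 1.14 and 1.22. Tnni3k, a kinase named for binding cardiac troponin I, differed from both in its acetylation: H3K27ac began at 3.79 RPM (6 reads, interval 1.39 to 8.25), reached 11.9 RPM at D4 (interval 10.3 to 13.7), and stood at 18.7 RPM at D8 (interval 15.8 to 21.97). Its H3K4me1 was 4.93, 9.72 and 13.7 RPM and its H3K4me3 3.009, 1.44 and 1.18. Both later acetylation intervals lay above the one at D0, with log2 changes of 1.34 and 1.93.

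Cep170, a centrosomal protein, had 5.99, 10.3 and 14.0 RPM of H3K4me1 and 2.53, 5.25 and 5.85 of H3K27ac. Its H3K4me3 was 2.46, 2.89 and 1.49 RPM, although the promoter window shown above is CpG-rich. Ip6k2, which makes inositol pyrophosphates, had 4.89, 7.58 and 13.1 RPM of H3K4me1 and 4.42, 6.14 and 6.87 of H3K27ac. For both genes the region behind the deposited value is not given in the sources used here, and it may not be the window of the most upstream annotated start.

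Mmp27, a matrix metalloproteinase, had 3.54, 7.95 and 12.6 RPM of H3K4me1, and its H3K27ac was 1.90, 6.23 and 6.36 RPM. The microRNA gene Mir100 had 3.95, 8.61 and 12.5 RPM of H3K4me1 and 6.32, 7.97 and 8.65 of H3K27ac, and Mir3971, inside Slc43a2, had 4.20, 8.401 and 12.7 and 2.53, 4.13 and 5.72. Tmem52b, a transmembrane protein, had 5.46, 8.55 and 12.2 RPM of H3K4me1 and an even H3K27ac of 5.05, 4.49 and 5.21. The 3 long non-coding RNA genes of this group differed among themselves in H3K27ac. Bcas3os2, antisense to Bcas3, was level at 5.69, 5.43 and 5.72 RPM, Gm19705 had 6.95, 10.95 and 14.5, and D630010B17Rik had 3.79, 6.85 and 16.3. H3K4me1 at D8 exceeded that at D4 and at D0 in all 12, as the plot of these genes shows.

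**Figure D2:**
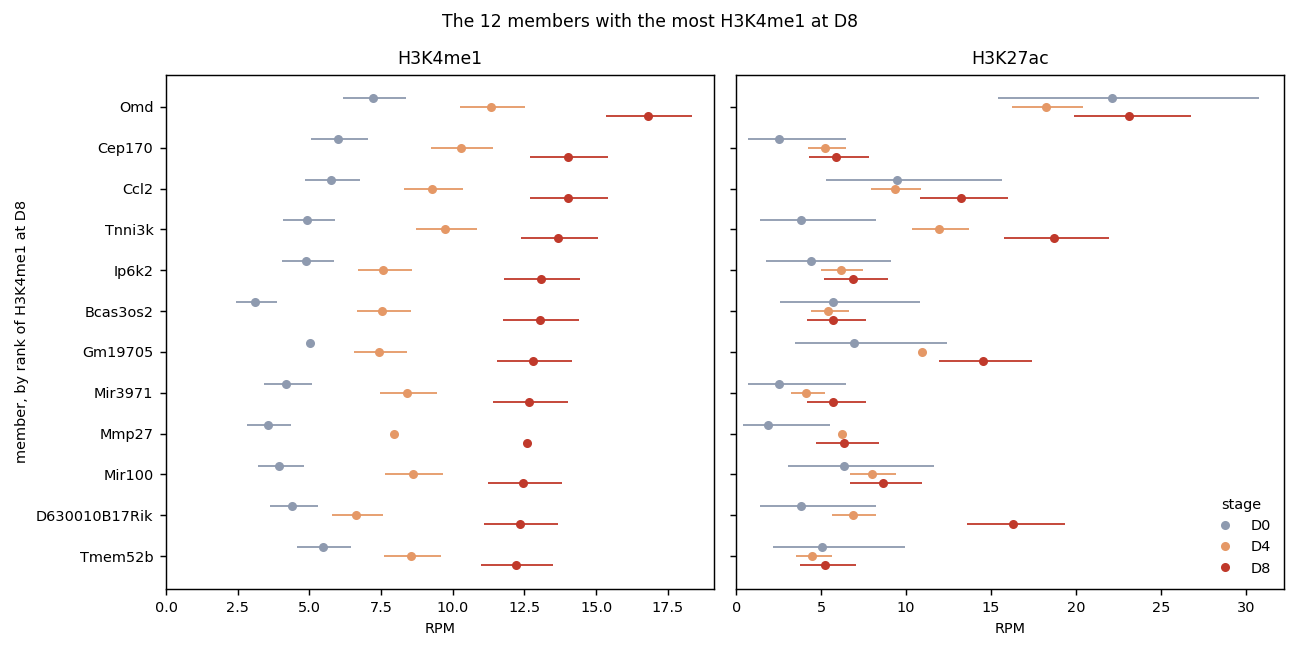
H3K4me1 (left) and H3K27ac (right) in RPM at D0, D4 and D8 for the 12 members with the most H3K4me1 at D8, as points with 95% Poisson intervals of the implied reads. Points with no interval are values that did not come to whole reads. H3K4me1 is ordered D0, D4, D8 in all 12, whereas H3K27ac runs from level (Omd, Tmem52b) to a rise from 3.79 to 18.7 RPM (Tnni3k).

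H3K27ac at the members lay above that of most genes at every stage, and its median change between D0 and D8 was smaller than that of all genes. At D0, D4 and D8 the medians were 2.90, 2.95 and 3.43 RPM, at percentile 66.5, 74.5 and 65.3 of all genes. The upper quartile of all genes was reached by 249 members at D0, 258 at D4 and 137 at D8, by 86 at all 3 stages, and by 140 at none. The genes with as much H3K4me1 and with H3K4me3 had medians of 3.16, 3.54 and 5.60 RPM. In the same D8 library the members were thus 2.16 RPM below them, against 0.263 RPM at D0. The other 8893 genes within both limits had medians of 1.26, 1.65 and 1.65 RPM.

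At D4 against D0, 29 of 451 compared members (6.43%) were at least 2-fold higher in H3K27ac and 20 (4.43%) at least 2-fold lower. The background was 5.73% higher and 3.85% lower, so these shares were near those of all genes. The median change was -0.03 for members and -0.09 for all compared genes. At D8 against D0, 56 of 466 (12.02%) were higher, below the background of 19.9%, and 8 (1.72%) were lower beside 2.32%. Median changes were 0.20 in members, 0.35 in all compared genes and 0.62 in the H3K4me3-bearing set. The limit on H3K4me3 at D8 may favour a smaller change of H3K27ac in members, which was not tested. At D8 against D4, 4 of 463 members (0.864%) were higher, with a background of 7.00%, and none was lower, with a background of 0.0324%. With the implied reads thinned to the depth of the shallowest H3K27ac library, the share of members higher at D8 than at D4 had a median of 12.1% over 50 draws, from 9.30% to 14.9%, and the share lower a median of 4.46%. The medians for all genes were 19.9% and 4.27%. Summed over genes, H3K27ac took 5.97%, 5.98% and 8.87% of its libraries at D0, D4 and D8, a shift that 2 other scalings treat differently. After subtraction of the median change of all genes 4.72% of members were higher and 9.23% lower at D8 than at D0, beside 9.82% and 9.22% of all genes, and after quantile normalization 3.13% and 8.04%, beside 7.31% and 6.61%. Falls thus outnumbered gains among members under both, the reverse of the balance in the deposited values. At D8 against D4 they left 0% higher and 1.30% or 1.09% lower. Of all genes 0.874% or 0.564% were higher and 0.854% or 0.503% lower.

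**Figure D3:**
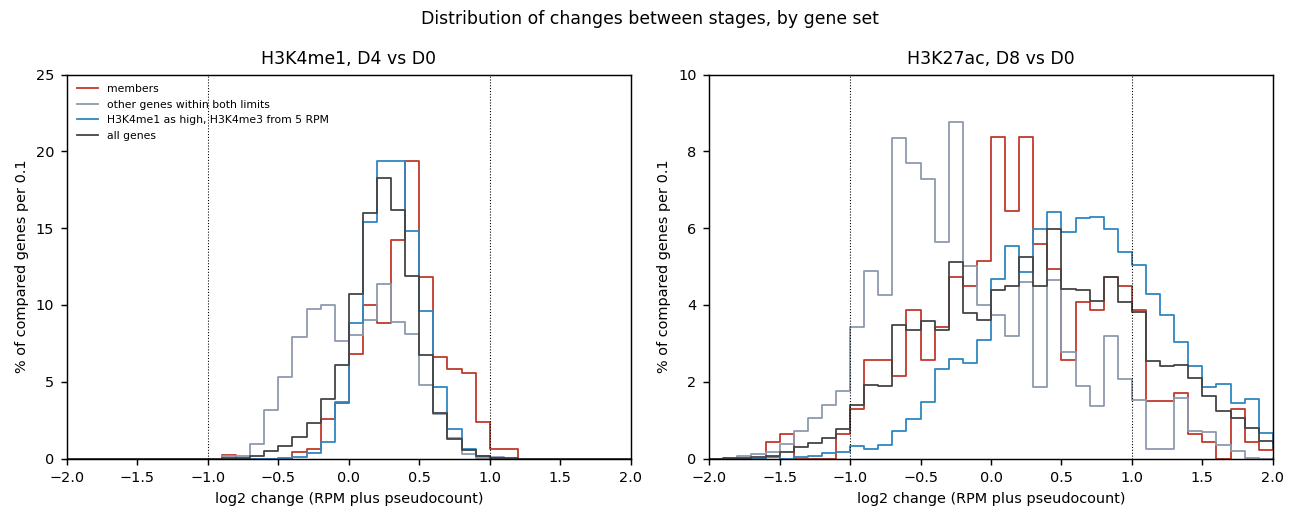
Distribution of log2 changes of H3K4me1 from D0 to D4 (left) and of H3K27ac from D0 to D8 (right) over the compared genes of 4 sets, in percent of genes per step of 0.1, with dotted lines at 2-fold. Members had a median H3K4me1 change of 0.42 against 0.24 in all genes, and a median H3K27ac change of 0.20 against 0.35.

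The members with the most H3K27ac at D8 were Omd, Tnni3k, D630010B17Rik, Olfr543, Mir7671, Gm19705, Ccl2, Mir5110, Bvht and Mir199a-1. Bvht, the long non-coding RNA Braveheart known from cardiac differentiation of mouse cells, had 6.32, 5.79 and 12.2 RPM at D0, D4 and D8. Olfr543, an odorant receptor gene, had 8.85, 6.85 and 14.9 RPM of H3K27ac with at most 1.803 RPM of H3K4me3. Mir199a-1, which lies within the dynamin gene Dnm2, had 15.8, 7.14 and 12.2 RPM. All but Tnni3k and D630010B17Rik of these 10 were in the top 10% of all genes at all 3 stages. In all, 18 members were, among them Tnfsf13, Fmo6, Lsp1 and Ssc5d.

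The largest gain of H3K27ac at D4 was that of 4930554I06Rik, a long non-coding RNA gene, with 0.632, 9.27 and 7.38 RPM (log2 2.32 at D4). Il13ra2, the decoy receptor for interleukin-13, was at 0 reads at D0 and had 5.20 RPM at D4 and 4.96 at D8. A count of 0 in that library allows up to 1.90 RPM (3 reads). Further gains at D4 were those of Gm4861 (1.90 to 9.62 RPM), Ifltd1 (1.26 to 6.38) and Gm5086 (0 to 2.83). At D8 Ugt1a6a, a glucuronosyltransferase of drug metabolism, had 8.65 RPM against 1.26 at D0, and Akr1c14, a hydroxysteroid dehydrogenase, 6.23 against 0.632. Each of these D0 values rests on at most 3 reads.

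Losses were smaller. E130310I04Rik, a long non-coding RNA gene starting inside Mylk, had 13.3, 2.54 and 4.01 RPM of H3K27ac while its H3K4me1 was 4.20, 5.49 and 8.85. Mir7680 had 9.48, 2.83 and 2.29 RPM, Slc44a3, a choline transporter-like protein, 8.85, 3.07 and 1.91, and Pdzd9 8.21, 3.04 and 2.10. Adam33, a membrane metalloproteinase of mesenchymal cells, had 6.32, 1.65 and 4.07. At D4, a stage the choice did not use, H3K4me1 stood above D0 in E130310I04Rik, Slc44a3, Pdzd9 and Adam33 and below it in Mir7680 (4.44 and 4.05 RPM).

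H3K4me3 was low at most members before treatment as well. At D0, 489 members (97.8%) had less than 5 RPM and at D4 488 (97.6%), with medians of 1.98 and 1.803 RPM, the former at percentile 34.1 of all genes. The median at D8, which the choice held down, was 1.32 RPM. The genes with as much H3K4me1 and with H3K4me3 had medians of 15.4 and 23.4 RPM. The highest members at D0 were E330013P04Rik (7.76 RPM), 4930455H04Rik (7.44), Palmd, palmdelphin (7.37), Angptl1, an angiopoietin-like secreted protein (6.97), and Mir15b (6.73). Their values at D8 were 4.62, 3.04, 2.98, 2.496 and 4.02 RPM. Only 16 members could be compared between D4 and D0, since the larger value had to reach the all-gene median of 5.41 RPM. Of these 1 was at least 2-fold higher (6.25%, Gm4861) and 2 lower (12.5%, 4930455H04Rik and Palmd), beside a background of 13.6% and 0.243%. The 2 lower genes had nearly the same H3K4me3 at every stage (1.803 RPM each at D4). They may thus be 1 observation, here and among the highest at D0. A gene that rose to 5 RPM at D8 could not be a member, which favours falls among the 16 compared members. After subtraction of the median change of all genes, 0% of these members were higher and 56.3% lower, so nothing is read from the direction.

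H3K27me3 was near the middle of all genes before the treatment as well. Medians were 1.96, 1.803 and 1.83 RPM at D0, D4 and D8, at percentile 57.2, 52.8 and 49.2. From D0 to D4, 7 of 380 compared members (1.84%) were at least 2-fold higher and 3 (0.789%) lower, beside 2.27% and 1.40% of all genes. With reads thinned to equal depth the medians over 50 draws were 3.49% higher and 4.32% lower, beside 3.88% and 3.55% of all genes. No direction is read from these counts. The lower ones were Palmd (5.67 to 1.63 RPM), Liph, a phosphatidic acid-selective lipase (5.28 to 1.74), and Kcnk7, a potassium channel subunit (2.54 to 0.488). Among the higher ones were Gpr39, a zinc-sensing receptor, listed at 0 at D0 and 2.12 RPM at D4, Sparcl1, a matricellular protein (0.587 and 3.36), and the sodium channel gene Scn7a (0.196 and 2.28). The values at D0 rest on a library with a median of 10.0 reads per member.

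By kind of gene, the members held fewer protein-coding and more non-coding genes than any set beside them. RefSeq annotated 499 of the 500, 266 (53.2%) as protein-coding, 158 (31.6%) as long non-coding RNA, 61 (12.2%) as microRNA and 6 (1.20%) as small nucleolar RNA. Long non-coding RNAs made up 12.8% of the other genes within both limits, 3.61% of the genes with as much H3K4me1 and with H3K4me3, and 8.55% of all genes. MicroRNAs made up 9.65%, 1.504% and 4.88% in the same order. Genes still named after a RIKEN cDNA clone were 111 members (22.2%), against 7.79% of all genes. The marks differed little between kinds of gene: H3K4me1 at D0 had medians of 3.26 RPM in protein-coding, 3.60 in long non-coding RNA and 3.91 in microRNA members, and H3K27ac at D8 had 3.43, 3.31 and 3.43 RPM.

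**Figure D4:**
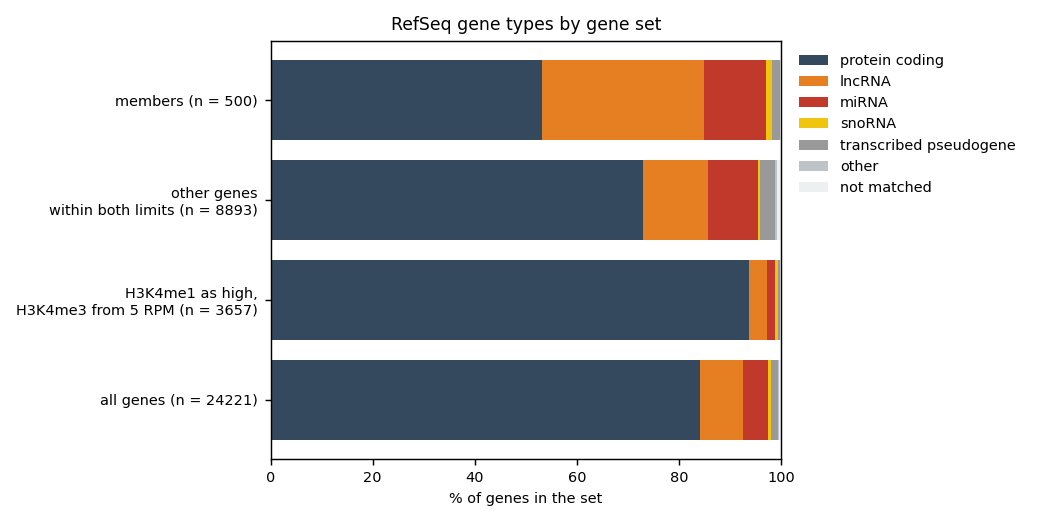
Share of RefSeq gene types, in percent of genes, among the members and in 3 other gene sets. Long non-coding RNA genes make up 31.6% of members and 12.8% of the other genes within both limits, and microRNA genes 12.2% and 9.65%.

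Several members belong to immune signalling. Of 31 cytokine and inflammatory genes of a list 4 were members (12.9%, where 2.06% of all genes were): Il6, Il1rl1, Ccl2 and Mmp10. Il6, the acute-phase cytokine interleukin-6, had 4.97, 5.70 and 7.05 RPM of H3K4me1, 5.05, 5.08 and 4.83 of H3K27ac and 4.12, 3.97 and 4.19 of H3K4me3. Its H3K4me1 intervals at D0 (4.13 to 5.93) and D8 (6.13 to 8.08) did not overlap, whereas those of H3K27ac did (2.18 to 9.96 and 3.42 to 6.63). Il1rl1, the receptor for interleukin-33, had 5.05, 6.61 and 6.83 RPM of H3K4me1 and 7.79, 5.94 and 6.15 of H3K27ac. Mmp10, stromelysin-2, had 1.87, 4.35 and 5.95 RPM of H3K4me1.

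Among chemokines and their receptors 4 of 55 genes were members (7.27%). Beside Ccl2 these were Ccl9, a chemokine of myeloid cells (H3K27ac 8.85, 2.95 and 3.43 RPM at D0, D4 and D8), Cxcl9, an interferon-inducible chemokine (1.26, 2.30 and 1.65), and Ccr3, the eotaxin receptor (1.90, 2.48 and 2.29). Among interleukins and their receptors 5 of 82 were (6.10%): Il6, Il1rl1, Il13ra2, Il34, a ligand of the CSF1 receptor, and Il18rap, a subunit of the interleukin-18 receptor. Il34 had 2.97, 5.17 and 7.09 RPM of H3K4me1, and Il18rap 3.34, 5.85 and 5.54. H3K4me1 at D4 was above D0 in all 9 of these genes, as in 92.6% of all members, and H3K27ac at Ccl9 was the single fall of at least 2-fold among them (log2 -1.21).

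Of the 42 name patterns the TNF superfamily had the largest share of members, with 6 of 32 genes (18.8%). The 5 ligands among these, out of 11 ligand genes named Tnfsf, were Tnfsf8 (CD30 ligand), Tnfsf18 (GITR ligand), Tnfsf13 (APRIL, a survival factor of plasma cells), Tnfsf4 (OX40 ligand) and Tnfsf15 (TL1A). The split into ligands and receptors was made after the values were seen. H3K4me1 at Tnfsf8 was 4.85, 7.26 and 11.5 RPM, at Tnfsf18 3.63, 7.75 and 11.4, at Tnfsf13 4.11, 7.34 and 9.71, at Tnfsf4 3.79, 5.99 and 7.93, and at Tnfsf15 4.11, 5.20 and 7.05. H3K27ac set them apart: at D8 it was 9.92 RPM at Tnfsf13 and 7.25 at Tnfsf8, against 3.94, 2.92 and 2.54 at Tnfsf4, Tnfsf18 and Tnfsf15. Of the 6 ligand genes that were no members, Tnfsf13b (BAFF) had 8.70 RPM of H3K4me1 and 9.38 of H3K4me3 at D8 and Tnfsf9 (4-1BB ligand) 7.09 and 37.4, both above the H3K4me3 limit. The one receptor gene among 20 was Tnfrsf26, with 2.65, 4.67 and 6.62 RPM of H3K4me1.

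Matrix and connective tissue genes were present in small numbers. The fibroblast list of 40 genes had 2 members, Dpt, dermatopontin (H3K4me1 4.85, 7.34 and 11.5 RPM), and Mfap5 (2.40, 4.29 and 5.74), since 36 of its genes were outside the limits at D8. Small leucine-rich proteoglycans, a group collected after the values were seen, had 3 of 15: Omd, Fmod (fibromodulin; 3.26, 2.26 and 5.31 RPM) and Prelp (3.30, 3.08 and 6.45). Ogn and Aspn, of the same family, had 7.29 and 11.02 RPM of H3K4me1 at D8 but 44.8 and 10.3 of H3K4me3. Fmod and Prelp were among the 37 members with no higher H3K4me1 at D4 than at D0. Other groups collected in the same way, to be read against the 2.06% of all genes that were members, were the flavin-containing monooxygenases with 3 of 7 (Fmo1, Fmo2 and Fmo6), the angiopoietins and relatives with 3 of 10 (Angptl1, Angptl7 and Angpt4), the S100 proteins with 3 of 16 (S100a2, S100a3 and S100a5), the ABCA transporters with 3 of 16 (Abca4, Abca8a and Abca9), the metallothioneins with Mt3 and Mt4 of 4, and the annexins with none of 12.

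Markers of other lineages were few. Tek, the angiopoietin receptor of endothelium, had 3.38, 7.02 and 8.26 RPM of H3K4me1, Sparcl1, an astrocyte marker, 4.32, 5.88 and 7.83, and Ankrd1, a target of YAP, 3.42, 4.61 and 6.11. Each was the single member of its list, of 18 endothelial, 18 astrocyte and 22 YAP-TEAD target genes. Of these lists 4, 11 and 17 genes, in the same order, reached the all-gene median of H3K4me1 at D8. Stra6, the retinol transporter that retinoic acid induces, had 2.31, 6.04 and 8.79 RPM of H3K4me1, 2.05, 2.60 and 6.17 of H3K27ac and 0.970, 2.34 and 3.400 of H3K4me3. It was the single member of 22 retinoic acid targets, a signal that M9 supplies. None of 31 neural stem and progenitor, 26 neuronal, 19 oligodendrocyte, 18 smooth muscle, 25 skeletal muscle, 24 blood and macrophage or 23 epithelial genes was a member, nor any of 18 Hedgehog, 22 Wnt, 24 BMP and TGF-beta, 14 AP-1, 20 low oxygen or 20 housekeeping genes. With 2.06% of all genes being members, lists of this size would hold few or none, so nothing is read from these zeros. All 31 neural stem and progenitor genes lay outside the limits at D8.

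Large families of sensory receptor genes were nearly absent although most of their genes met both limits. Odorant receptors had 2 members (Olfr543 and Olfr433) of 1124 genes, 0.178% of the family, and vomeronasal and taste receptors none of 348. Cytochrome P450 genes had none of 105, ribosomal protein genes none of 101, histone genes none of 69 and Hox genes none of 44, counts too small to set apart from the 2.06% of all genes. The X chromosome held 2 members of its 1043 genes (0.192%). The autosomes ranged from chromosome 17 with 16 of 1176 (1.36%) to chromosome 18 with 23 of 598 (3.85%), and chromosome 1 held 48 of 1348 (3.56%).

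The microRNAs that share a seed had these levels. Mirlet7a-1 had 6.11, 6.37 and 8.23 RPM of H3K4me1 at D0, D4 and D8, Mirlet7f-1 5.83, 5.67 and 7.46, and Mirlet7c-1, on another chromosome, 3.75, 4.08 and 5.81. Mir29b-1 and Mir29a, microRNAs known to act on collagen mRNAs, had 4.36, 6.17 and 9.002 RPM and 4.40, 5.99 and 8.46 RPM of H3K4me1, with H3K27ac of 6.32, 5.08 and 7.38 and 6.32, 5.08 and 6.87. Mir15b had 5.74, 7.17 and 8.26 RPM of H3K4me1, Mir16-2 5.62, 6.90 and 8.23, and Mir6353 4.40, 6.52 and 9.74. Neighbours such as Mir29a with Mir29b-1, Mirlet7a-1 with Mirlet7f-1 and Mir15b with Mir16-2 lie within 1 kb of each other and share most of their reads, so each pair is 1 observation.

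Shared reads could be sought only among the 373 members with a start in the reference tables. Over all genes, starts less than 1 kb apart had H3K4me3 values at D8 that differed by a median of 0.00894 on the log2 scale, and starts 2 to 4 kb apart by 0.628. Of the 373 members 10, in 5 pairs, had another of them within 2 kb, and 52, in 24 groups, within 50 kb. Palmd and 4930455H04Rik were in no such pair. Yet their H3K4me3 at D0, D4 and D8 was nearly the same (7.37, 1.803 and 2.98 RPM against 7.44, 1.803 and 3.04). Whether they share reads was not tested. The largest group was 5 genes over 102.1 kb of the keratin-associated protein locus on chromosome 11 (Krtap3-2, Krtap1-5, Krtap1-4, Gm11562 and Gm11563). Other groups were Fmo2 with Fmo6, S100a3 with S100a5, Mt3 with Mt4, and Bcas3os1 with Mir5110 and Bcas3os2.

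Many members started inside a larger gene. Of 373 members with a start in the reference tables, 83 (22.3%; 95% exact Clopper-Pearson interval 18.1 to 26.8) lay within another protein-coding gene, against 13.1% of the other genes within both limits and 11.2% of all genes. For microRNA members the share was 67.3% (35 of 52), close to the 65.2% of all microRNA genes, and for long non-coding RNA members 24.8% against 29.4%. Among protein-coding members it was 18 of 200, against 4.66% of the other protein-coding genes within both limits and 6.08% of all. In every set long non-coding RNA and microRNA genes had higher shares than protein-coding ones, and the members held more of both. How far this mix makes up the 22.3% was not tested, so the excess over all genes is not read as a trait of the members. Of 78 host genes with a row of their own, 54 (69.2%) had at least 5 RPM of H3K4me3 at D8, with a median of 41.6 RPM over the 78. On the other side of this limit, below 5 RPM, lay 44.3% of all genes. All genes include non-coding ones, whereas hosts were protein-coding by definition. Hosts chosen after their values were seen show the spread: Hmga2, which holds Mir763, had 95.2 RPM and Gli2, the Hedgehog effector that holds Mir6346, 78.5, whereas Mylk, which holds E130310I04Rik, had 1.12 and Tln2, which holds Mir190a, 1.21. Over all 373 members with a start, inside a host or not, the nearest H3K4me3-bearing start lay a median of 68.9 kb away, and 6.43% had one within 10 kb, against 6.63% of the other genes within both limits.

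CpG content parted the members from the H3K4me3-bearing genes but hardly from the other genes within both limits. The observed over expected CpG ratio, measured in the windows of 321 members, had a median of 0.238, against 0.186 in the other genes within both limits, 0.827 in the genes with as much H3K4me1 and with H3K4me3, and 0.582 in all genes. It was below 0.5 in 289 members (90.03%; exact Clopper-Pearson interval 86.2 to 93.1). It was above 0.75 in 8: Cep170, Ip6k2, Ccdc186, R3hdm2, 5430403N17Rik, Srek1, 1600014C23Rik and Evi5. Several annotated starts were listed for 37 members, of which the most upstream was read.

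**Figure D5:**
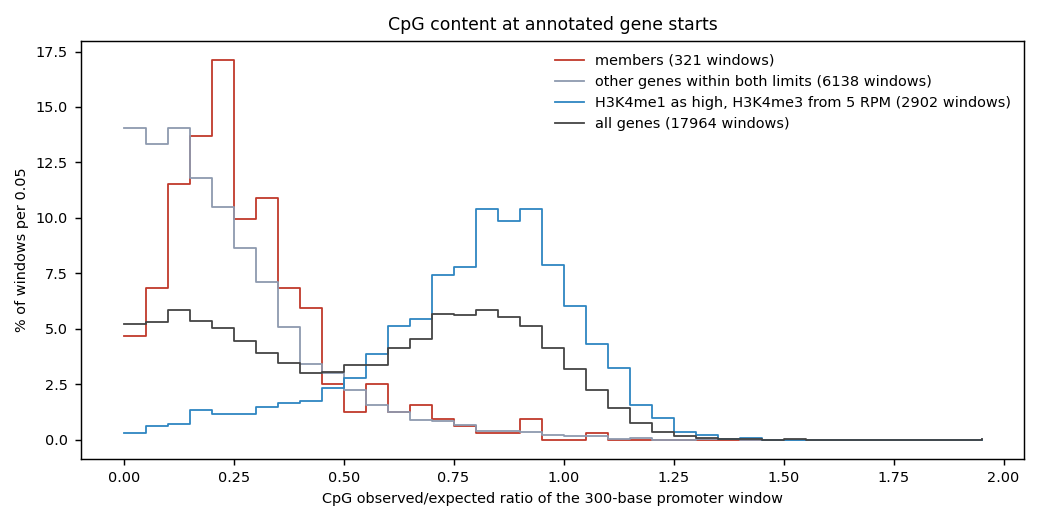
CpG observed/expected ratio of the 300-base promoter windows in 4 gene sets, in percent of windows per step of 0.05. The 321 member windows centre on 0.238 and the windows of genes with as much H3K4me1 and with H3K4me3 on 0.827.

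Short motifs were counted on both strands of the same windows. The AP-1 motif TGANTCA was in 15.6% of member windows and 12.4% of windows of the other genes within both limits. It was in 5.10% of those of the H3K4me3-bearing set and 7.38% of those of all genes. In the Il6 window printed above it begins 249 bases before the start, and in that of Tnfsf13 133 before. The TEAD motif CATTCC was in 19.9%, 16.2%, 10.8% and 13.4% in the same order, and TATAAA in 16.5%, 23.9%, 6.86% and 12.9%. GGGCGG, a CpG-bearing motif, was in 16.8%, 13.0%, 69.5% and 46.8%, and CCAAT in 36.1%, 40.8%, 38.0% and 39.1%. The windows differ in base composition between the sets, and the part of this in the shares was not tested. A match is a run of letters and not a bound site.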

How the data were processed

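Chromatin was sheared to 200 to 400 bp and libraries were amplified with 13 PCR cycles and read as single 50 nt reads, per the labels' protocols. Per the submitters' processing notes, CASAVA 1.8.4, Bowtie 1.1.0, SAMtools 0.1.19, bedtools and mouse build mm10 were used. What each tool did, which region was counted per gene and whether duplicates were removed is not stated there. The authors deposited 1 table of 20 value columns, of which 12 matched a labelled library by name. The other 8 were not used, and the ciNSLC, pri-NPC and input libraries are not analysed here. The deposited values are taken as RPM, inferred from the values: 93.5% to 94.7% per column were whole multiples of 1 step within 0.02 reads, and that step gives the implied reads. Nothing in the sources used here states an input subtraction.

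Left out were 27 symbols turned into dates and 205 genes at 0 throughout, leaving 24221. Pseudocounts were 1.63 (H3K4me1), 1.53 (H3K27ac), 1.44 (H3K4me3) and 1.30 RPM (H3K27me3). A gene was compared where its larger value reached the mark's median (2.49, 2.18, 5.41 and 1.76 RPM) and called from 2-fold. With 1 library per mark and stage there is no test. Intervals are 95%. Those of single-gene values are Poisson and cover counting error alone, and amplified reads carry no molecular identifiers and need not be independent. Those of shares are Clopper-Pearson and do not cover counting error of reads. They treat genes as independent draws, although the members were chosen by a rule and some share reads. The calculation recovered known changes in simulated data. These were rises far above 2-fold, set only in H3K4me1 at D4 and in genes with much of it. Recovery of changes near 2-fold or in the other marks was not tested. Positions, gene types and sequences are from RefSeq (GRCm38.p6). Families (42 name patterns) and lists (19) and the members themselves were chosen with earlier results of these data known. Named genes are the first 12 by H3K4me1 at D8, those at the limits, the extremes of each change, of H3K27ac at D8, of H3K4me3 and H3K4me1 at D0, list members and microRNAs with a printed sequence. Further family members are named to fill small counts. Python 3.11.15, numpy 2.4.6, pandas 2.3.3, scipy 1.17.1 and matplotlib 3.10.9 were used.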

Additional observations from a re-analysis of the deposited data

How the results depend on the processing

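No paired analysis was possible because each mark and stage has 1 library; for the same reason none could be left out. Of 216 values recomputed under 12 settings (24 results), 159 stayed within the Clopper-Pearson interval of the main value and 57 did not. Whether gains or falls were more frequent turned for H3K27ac at D8 (against D0 and D4) and H3K4me1 at D4 after subtracting the median change, for H3K27ac at D8 after quantile normalization, for H3K27me3 at D4 after thinning, and for H3K4me3 at D4, with few compared genes, among the first 250, the first 1000 and the members below 2.5 RPM of H3K4me3. The 497 autosomal members and the 495 left with 1 per 2 kb neighbourhood moved no value. Members without a start in the reference tables could not be placed in a neighbourhood and were all kept. Shares of compared members at least 2-fold higher and lower follow, with all genes in brackets.

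A pseudocount 4 times smaller gave, for H3K27ac, 13.3% (12.8%) and 8.65% (11.8%) at D4 against D0. At D8 against D0 it gave 24.03% (30.4%) and 7.08% (7.12%), and at D8 against D4 5.18% (16.2%) and 0.864% (0.673%). For H3K27me3 at D4 it gave 8.16% (8.30%) and 7.63% (6.65%), and for H3K4me1 at D4 10.6% higher (1.57%). One 4 times larger gave 0.222% (0.0900%) and 0.222% (0.0964%), 0.858% (2.98%) and 0% (0.0299%), and 0% (0.569%) higher for H3K27ac in the same order. For H3K27me3 it gave 0% (0.00616%) and 0% (0.00616%), for H3K4me1 0% (0%) and 0% (0%), and for H3K4me3 0% (3.70%) and 0% (0.0649%). Subtracting the median change of all genes gave 4.72% (9.82%) and 9.23% for H3K27ac at D8 against D0, 0% and 1.30% at D8 against D4, 0% higher for H3K4me1, and 0% and 56.3% for H3K4me3 at D4. Quantile normalization gave 9.41% (7.37%) higher for H3K27ac at D4, 3.13% (7.31%) and 8.04% (6.61%) at D8 against D0, and 0% (0.564%) and 1.09% (0.503%) at D8 against D4. For H3K4me3 at D4 it gave 60.7% (4.14%) lower. Thinning to equal depth gave medians over 50 draws of 9.72% (10.1%) and 8.99% (10.4%) for H3K27ac at D4, and 15.3% (22.4%) and 6.26% (5.93%) at D8 against D0. At D8 against D4 they were 12.1% (19.9%) and 4.46% (4.27%), and for H3K27me3 at D4 3.49% (3.88%) and 4.32% (3.55%). Single draws, as first planned, were run with 3 seeds and differed, so the median of repeated draws replaced them after the data had been seen. The share of members with 2-fold higher H3K27ac at D8 than at D0 stayed below that of all genes under each scaling or pseudocount named here with its bracket.

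The first 250 members had 67.2% and 92.8% in the top 10% for H3K4me1 at D0 and D4, and 25.6%, 27.6% and 13.2% for H3K27ac at D0, D4 and D8. Of them 27.1% started inside a protein-coding gene and 0% (0.243%) had 2-fold lower H3K4me3. The first 1000 rows had 32.3%, 37.5%, 12.3%, 9.20% and 3.60% in the top 10% in that order. With H3K4me3 at D8 below 2.5 RPM, 43.2%, 57.0% (H3K4me1 at D0 and D4) and 4.60% (H3K27ac at D8) were, 99.8% and 99.2% had less than 5 RPM of H3K4me3 at D0 and D4, and 33.3% (13.6%) were higher and 0% (0.243%) lower in H3K4me3. The causes were not tested. Depth limits H3K27ac at D0 and H3K4me3 at D4 most.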
